A study of Saccharomyces cerevisiae with 6 samples.

Results

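Serine, glycine and one-carbon metabolism was followed through 10 yeast genes: SER1, SER2, SER3, SER33, SHM1, SHM2, GCV1, GCV2, GCV3 and MIS1. They were found by gene symbol in the probe annotation, old or current, and each had 1 probe set, so that they made up 10 of 5449 named genes and 10 of 5498 probe sets with a gene name. All RNA was from the diploid Saccharomyces cerevisiae strain BY4743, which is known to carry deletions in HIS3, LEU2 and URA3, so both groups carry them. The treated group was given LoaOOH (linoleic acid hydroperoxide, a product of lipid peroxidation) at 75 µM, a dose the labels describe as growth-arresting, and the control group an equal volume of its solvent, methanol. Cultures had been grown in minimal medium at 30 °C to an OD600 of 1.0 and were collected 60 min after the addition. There were 3 cultures per group, and each had its own 1-colour Affymetrix Yeast_2 array. Each sample, called a culture here, was listed with an aliquot of 50 mL. Whether aliquots of both groups came from the same parent culture was not known here. The composition of the minimal medium, which bears on how much serine, glycine and adenine cells must make, is not given in the sources used here.

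Yeast makes serine from the glycolytic intermediate phosphoglycerate. The serine hydroxymethyltransferases split serine into glycine and a one-carbon unit carried on tetrahydrofolate, and the mitochondrial glycine cleavage complex takes a further one-carbon unit from glycine. Folate enzymes then interconvert these units, which feed the synthesis of purines, thymidylate and methionine. Several of the genes are known targets of the transcription factors Gcn4, which responds to amino acid shortage, and Bas1 with Pho2 (also called Bas2), which respond to purine demand.

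Of the 10 genes, 9 rose and 1 fell in LoaOOH-treated cells. The glycine cleavage genes GCV1 (3.95-fold) and GCV2 (3.07-fold) and the serine synthesis gene SER3 (3.25-fold) rose by most, and MIS1, the mitochondrial synthase that interconverts one-carbon folates, fell 1.46-fold. A gene was said to rise or fall where limma gave a Benjamini-Hochberg adjusted p under 0.05 over all 5498 probe sets. Calls were common on these arrays: 78.7% of all probe sets were called, 36.8% higher and 41.9% lower, so a call by itself says little about a member. The median log2 difference, LoaOOH minus methanol, was 0.84 over the 10 genes and -0.03 over all probe sets. An at least 2-fold rise was seen in 4 of the 10 genes and in 5.02% of all probe sets. In all 10 genes the 3 LoaOOH cultures lay apart from the 3 methanol cultures, as they did in 81.1% of all probe sets.

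**Figure D1:**
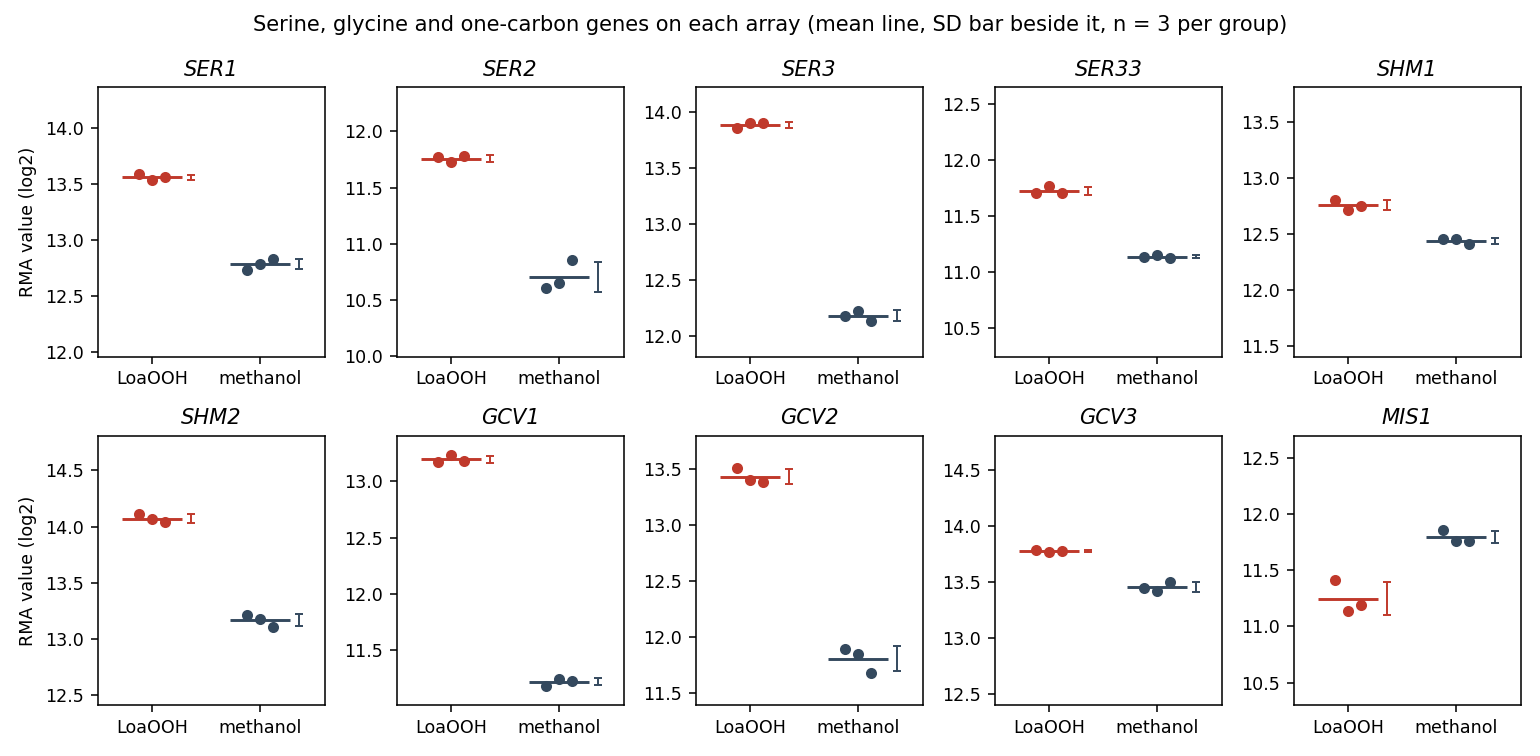
RMA value (log2) of each gene on each of the 6 arrays, LoaOOH left and methanol right, with the mean as a line and the SD as a bar (n = 3 per group); every panel spans the same range of log2 units, but the levels of different genes are not comparable. The groups are separated in all 10 panels, most widely in GCV1, SER3 and GCV2, and MIS1 is the panel in which LoaOOH lies below methanol.

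Some facts of the whole series bear on these values. The RMA values are relative to the typical message on an array. Correlations over named probe sets ran between 0.99768 and 0.99911 within a group, against 0.9505 to 0.95431 for a LoaOOH with a methanol array. The 36 probe sets for poly-A spike-ins, bacterial messages added to the RNA, averaged 6.93 ± 0.125 on LoaOOH arrays and 7.44 ± 0.165 on methanol arrays (SD, n = 3 each), with all 36 lower (exact two-sided permutation p = 0.1, the smallest that 3 against 3 arrays allow). Scaling to them adds 0.52 to every log2 difference and moves the median of all probe sets to 0.48. A sign of RNA or labelling quality, the excess of 3' over 5' signal in 7 control messages, moved by -0.15 (WBP1) to 0.58 (SRB4). It was lower in LoaOOH for ACT1, RIP1 and WBP1 and higher for SPT15 and SRB4, each with an exact permutation p of 0.1. EAF5 and TDH1 moved by 0.03 and 0.0012. The part of these shifts in the results was not tested. The 17 ribosomal RNA probe sets averaged 12.84 ± 0.111 on LoaOOH arrays and 13.48 ± 0.123 on methanol arrays (SD, n = 3 each), a difference of -0.64 with all 17 lower (exact permutation p = 0.1), and the part of this shift in the results was not tested. In bulk RNA, fewer cells of a type and less RNA per cell cannot be told apart. As a check of the strain, URA3 averaged 3.37 in LoaOOH and 3.50 in methanol cultures, under the brightest negative control probe set at 5.15, and LEU2 lay near it at 5.64 and 5.39. HIS3 averaged 12.42 in LoaOOH and 10.99 in methanol cultures. Its deletion in this strain is known to be partial, and where its probes lie is not given in the sources used here. Of 9 haploid marker genes 4 were called higher and 1 lower. Their log2 values summed to 64.4 to 64.6 in LoaOOH and 64.1 to 65.4 in methanol cultures. Of 5 sporulation markers 2 were called in each direction, and their log2 values summed to 38.3 to 39.3 in LoaOOH and 41.2 to 41.5 in methanol cultures. A sum of log2 values is not a summed amount of message, and opposite changes cancel in it. SPS4 fell by 2.41 on the log2 scale. Of all probe sets 36.8% were called higher and 41.9% lower, so a call of a marker by itself says little. RMA gives no true zero, so none of these markers is at 0, and their part in the results was not tested.

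The genes of serine synthesis rose at each step of the pathway. The first step is the oxidation of phosphoglycerate by Ser3 or Ser33, a pair of closely related isozymes. SER3 read 13.85, 13.90 and 13.90 in the LoaOOH cultures, against 12.18, 12.23 and 12.14 in the methanol cultures. The lowest LoaOOH culture was 1.62 log2 units above the highest methanol culture, and the difference was 1.70 (SE 0.044, limma adjusted p = 4.53e-09). It ranked 73rd from the top among all 5498 differences. SER33 read 11.71, 11.77 and 11.70 in the LoaOOH cultures, against 11.14, 11.15 and 11.13 in the methanol cultures. It rose by 0.59 on the log2 scale (SE 0.041, 95% interval 0.49 to 0.68, limma adjusted p = 1.53e-06), again with no overlap of the groups.

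SER1 encodes the phosphoserine aminotransferase, the second step. It read 13.59, 13.54 and 13.56 in the LoaOOH cultures, against 12.74, 12.79 and 12.83 in the methanol cultures. The rise was 1.71-fold (log2 difference 0.78, SE 0.044, limma adjusted p = 3.91e-07), and all LoaOOH cultures were within 0.05 of each other. SER2, the phosphoserine phosphatase that completes the pathway, read 11.77, 11.72 and 11.78 in the LoaOOH cultures, against 10.61, 10.65 and 10.86 in the methanol cultures. Methanol culture 3 was the highest of its group, yet it lay 0.87 below the lowest LoaOOH culture. SER2 rose 2.08-fold (log2 difference 1.05, SE 0.066, limma adjusted p = 7.47e-07), and the difference was between 1.00 and 1.13 whichever array was left out.

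The SER3 gene overlaps a non-coding gene. In the R64 gene table SRG1, whose transcription is known to repress SER3 when serine is available, covers the first 77 bases of SER3. No probe set of the table is named for SRG1, so its level was not measured here. Where the SER3 probes lie relative to the overlap is not given in the sources used here.

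Serine hydroxymethyltransferase moves a carbon from serine to tetrahydrofolate and exists as a cytosolic form, Shm2, and a mitochondrial form, Shm1. SHM2 read 14.11, 14.07 and 14.04 in the LoaOOH cultures, against 13.22, 13.18 and 13.11 in the methanol cultures. The rise was 1.87-fold (log2 difference 0.90, SE 0.047, 95% interval 0.80 to 1.01, limma adjusted p = 2.18e-07). SHM1 read 12.81, 12.72 and 12.75 in the LoaOOH cultures, against 12.45, 12.45 and 12.41 in the methanol cultures. The groups were separate by 0.26, and the rise was 1.25-fold (log2 difference 0.32, SE 0.044, 95% interval 0.22 to 0.42, limma adjusted p = 0.000121). SHM1 and GCV3 had the smallest rises of the 9, ranking 1355th and 1351st of all differences.

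The glycine cleavage complex of mitochondria holds a decarboxylase (Gcv2), an aminomethyltransferase (Gcv1), a lipoate-bearing carrier protein (Gcv3) and a lipoamide dehydrogenase (Lpd1) that it shares with other complexes. GCV1 read 13.17, 13.23 and 13.18 in the LoaOOH cultures, against 11.18, 11.24 and 11.23 in the methanol cultures. Its difference of 1.98 (SE 0.042, 95% interval 1.89 to 2.08, limma adjusted p = 1.62e-09) was the largest of the 10 genes and ranked 50th of all. GCV2 read 13.51, 13.40 and 13.38 in the LoaOOH cultures, against 11.90, 11.85 and 11.68 in the methanol cultures. The spread in methanol was wider here (SD 0.114) than for GCV1 (SD 0.032), but the groups stood 1.48 apart, with a difference of 1.62 (SE 0.065, limma adjusted p = 4.995e-08).

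The messages of this complex did not move by equal amounts. GCV3 read 13.78, 13.77 and 13.78 in the LoaOOH cultures, against 13.44, 13.42 and 13.50 in the methanol cultures. It rose 1.25-fold (log2 difference 0.32, SE 0.042, 95% interval 0.23 to 0.42, limma adjusted p = 9.4e-05), an interval far below those of GCV1 and GCV2. The LoaOOH cultures were within 0.02 of each other, the smallest SD of any member in either group (0.0062). LPD1, from the list of other serine and glycine routes, rose by 0.45 (limma adjusted p = 1.37e-05), also less than GCV1 and GCV2. The contrast within the complex was seen in the values first and was not tested.

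MIS1, the mitochondrial trifunctional one-carbon folate synthase, was the member that fell. It read 11.42, 11.14 and 11.19 in the LoaOOH cultures, against 11.86, 11.77 and 11.76 in the methanol cultures. LoaOOH culture 1 was the highest of its group, and the SD in that group (0.147) was the largest of any member in either group. The groups did not overlap, with a gap of 0.34, and the difference was -0.55 (SE 0.072, 95% interval -0.71 to -0.38, limma adjusted p = 0.000102). It was -0.63 without LoaOOH culture 1 and remained called without any 1 of the 6 arrays.

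The direction of MIS1 holds relative to the typical message. Scaled to the spike-ins its difference was -0.03, and the 9 other members were higher by 0.84 (SHM1, GCV3) to 2.50 (GCV1). The spike-in scaling adds the same amount to every difference, so a rise had to stay a rise. Its errors are dominated by the 6 spike-in offsets that all genes share, and limma took the variance as known and common to all genes. Its p-values are therefore not given, and its calls, nominally 65.9% of all probe sets higher and 7.68% lower, are a description only.

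**Figure D2:**
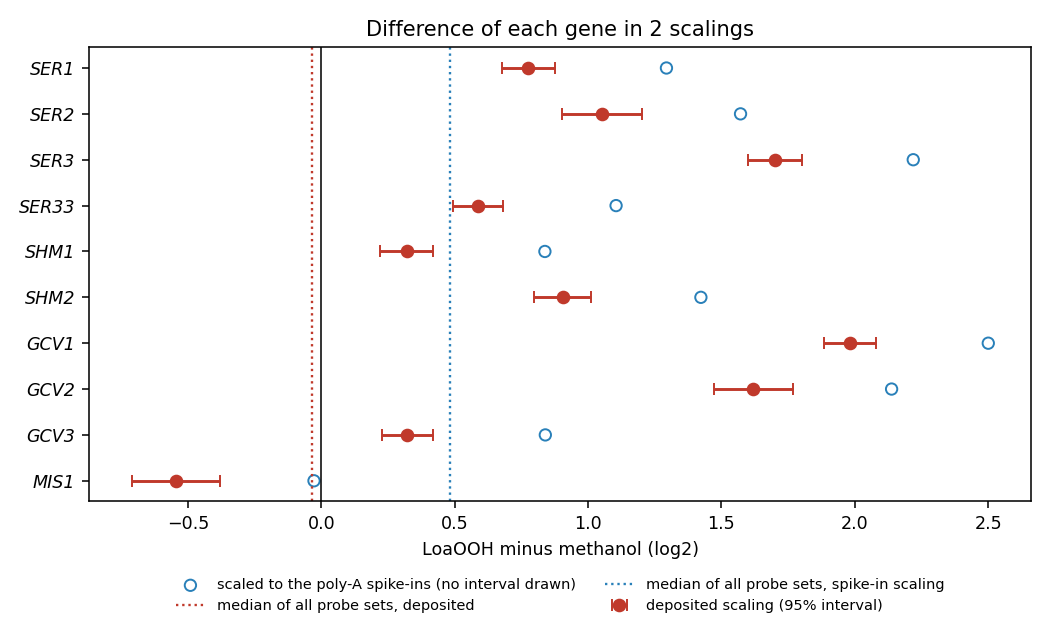
LoaOOH minus methanol (log2) for each gene, as deposited (filled, with 95% interval) and scaled to the poly-A spike-ins (open), with the median of all probe sets in each scaling as a dotted line. MIS1 is at -0.55 as deposited and at -0.03 after spike-in scaling. All other members are right of 0 and of the median in each scaling, and the shift between scalings is the same for every gene.

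Whether isozymes changed unequally was asked through their ratio within each array, which is the same in both scalings. The level of such a ratio has no meaning across probe sets, and only its change between groups was read. The log2 ratio of SHM2 over SHM1 was 1.30, 1.35 and 1.29 in the LoaOOH cultures, against 0.76, 0.72 and 0.70 in the methanol cultures. The ratio shifted by 0.58 toward the message of the cytosolic form, with the groups apart (exact two-sided permutation p = 0.1). This is the smallest p this design allows, so no such test could pass 0.05.

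The log2 ratio of SER33 over SER3 was -2.15, -2.13 and -2.20 in the LoaOOH cultures, against -1.05, -1.08 and -1.01 in the methanol cultures. It fell by 1.11, so SER3 gained on SER33, with no overlap (exact permutation p = 0.1). The SER3 and SER33 probe sets carry the plain suffix that Affymetrix gives to sets designed for 1 gene, and how far each binds the message of the other was not tested.

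ADE3 encodes the cytosolic counterpart of Mis1. The log2 ratio of ADE3 over MIS1 was 1.63, 1.79 and 1.73 in the LoaOOH cultures, against 0.97, 1.03 and 0.94 in the methanol cultures. It shifted by 0.74 toward the message of the cytosolic enzyme (exact permutation p = 0.1). LoaOOH culture 1 was the lowest of its group but still above all methanol cultures. Over the 3 ratios, Benjamini-Hochberg adjustment leaves each p at 0.1.

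**Figure D3:**
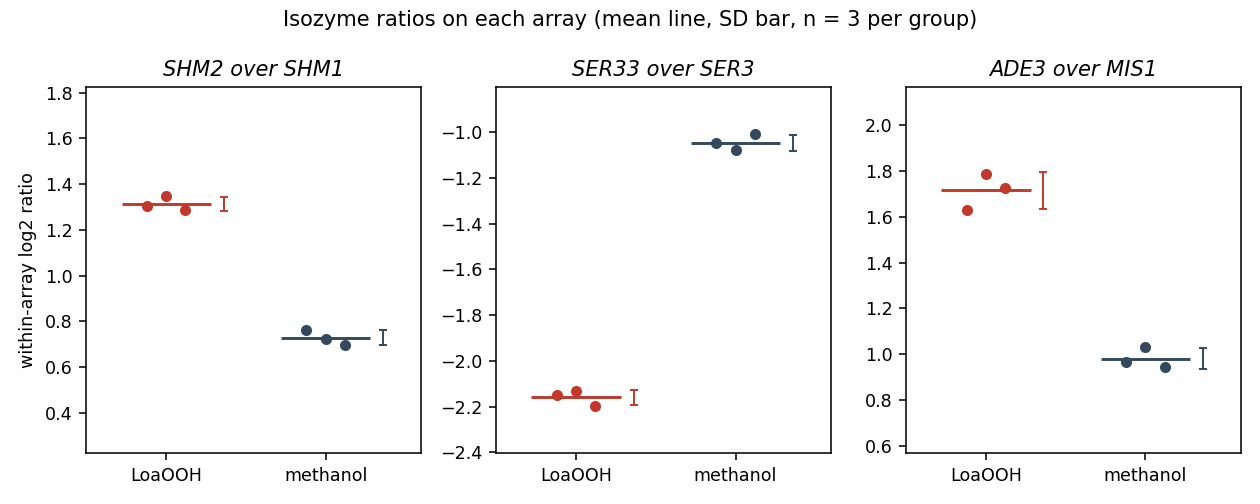
Within-array log2 ratio of 3 isozyme pairs on each array, LoaOOH left and methanol right, with the mean as a line and the SD as a bar (n = 3 per group); all panels span the same range of log2 units. SHM2 over SHM1 and ADE3 over MIS1 are higher in LoaOOH, SER33 over SER3 is lower, and no pair of groups overlaps.

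Related genes were set beside the 10 in 4 lists: folate synthesis and interconversion, other routes to and from serine and glycine, enzymes that use serine, glycine or one-carbon folates, and transcription regulators. Together these lists had 34 measured genes of 35, without ADE5,7, which no probe set of the table names. Of the 34, 16 rose, 13 fell and 5 were not called, and their median difference was 0.11, beside -0.03 for all probe sets, of which 36.8% were called higher and 41.9% lower. At least 2-fold rises were seen in 3 of them (MTD1, AGX1 and ADE8), beside 5.02% of all probe sets, and an at least 2-fold fall in 1 (CDC21), beside 4.15% of all. Scaled to the spike-ins, 23 of the 34 were nominally called higher and 2 lower, beside 65.9% and 7.68% of all probe sets.

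In the folate list 7 of 12 genes rose, 3 fell and 2 were not called (median 0.16). MTD1, the cytosolic dehydrogenase that oxidises methylene-tetrahydrofolate with NAD, read 13.76, 13.83 and 13.81 in the LoaOOH cultures, against 11.77, 11.79 and 11.82 in the methanol cultures. It rose 4.02-fold (log2 difference 2.01, SE 0.042, limma adjusted p = 1.36e-09), beside 3.95-fold for GCV1. The methylene-tetrahydrofolate reductase gene MET13 rose by 0.68 and its homologue MET12 by 0.15 (limma adjusted p = 0.0176), a call that MET12 lost without LoaOOH culture 1 (adjusted p = 0.051). FAU1, which returns formyl-tetrahydrofolate to use, rose by 0.53. ABZ1 (0.39) and ABZ2 (0.17), which make the folate precursor para-aminobenzoate, rose as well.

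ADE3 rose by 0.19 (limma adjusted p = 0.0097) and was not called after quantile normalisation (adjusted p = 0.128). The genes that fell were DFR1, dihydrofolate reductase (-0.53), FOL2, GTP cyclohydrolase (-0.24), and MET7, which adds glutamate tails to folates (-0.22). Scaled to the spike-ins, DFR1 was at -0.01, FOL2 at 0.27 and MET7 at 0.30. FOL1 (-0.02) and FOL3 (0.10, limma adjusted p = 0.0824), both of folate synthesis, were not called. FOL3 gained a call with quantile normalisation (adjusted p = 0.028), median centring (adjusted p = 0.0288) or array weights (adjusted p = 0.0059), and without methanol 3 (adjusted p = 0.0256).

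Among the 5 genes of other serine and glycine routes, AGX1 and LPD1 rose, HEM25 and CHA1 fell and GLY1 was not called (median 0.06). AGX1, which makes glycine from glyoxylate and alanine, rose 2.16-fold (log2 difference 1.11, SE 0.046, limma adjusted p = 5.76e-08). GLY1, the threonine aldolase that gives glycine from threonine, differed by 0.06 (limma adjusted p = 0.351). HEM25, the mitochondrial glycine carrier of haem synthesis, fell by 0.55 and CHA1, the serine and threonine deaminase, by 0.33 on the log2 scale. Scaled to the spike-ins HEM25 was at -0.03 and CHA1 at 0.19.

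Of the 13 measured users, 3 rose, 8 fell and 2 were not called (median -0.28). The 3 that rose use one-carbon folates: ADE8 (1.07) and ADE17 (0.56) add formyl groups in purine synthesis, and MET6 (0.52) makes methionine. ADE16, the second isozyme of the ADE17 step, fell by 0.37. CDC21, thymidylate synthase, read 8.92, 8.95 and 8.97 in the LoaOOH cultures, against 10.41, 10.41 and 10.31 in the methanol cultures. It fell 2.70-fold (log2 difference -1.43, SE 0.046, limma adjusted p = 1.42e-08), the largest fall in the 4 lists.

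Serine enters sphingolipids through serine palmitoyltransferase, whose subunit genes LCB1 and LCB2 differed by -0.98 and -0.11. LCB2 had a limma adjusted p of 0.0404. Leaving out any array but LoaOOH 1 ended this call (adjusted p = 0.0687 to 0.134), as did median centring (adjusted p = 0.131). CHO1, phosphatidylserine synthase (-0.51), HEM1, which starts haem synthesis from glycine (-0.55), and GSH2, glutathione synthetase (-0.28), also fell. CYS4 (-0.04, adjusted p = 0.437) and TRP5 (0.16, adjusted p = 0.0556) were not called by limma. TRP5 gained a call when LoaOOH 2 or methanol 1 was left out (limma adjusted p = 0.0382 and 0.0277). It also gained one with median centring (adjusted p = 0.026) and with a variance trend and robust fitting (adjusted p = 0.0226). The same held without the dimmest probe sets (adjusted p = 0.0404) and with the replicate block (adjusted p = 0.0145). FMT1, which formylates the mitochondrial initiator tRNA, lay under the brightest negative control in both groups, so it gives no fold although it was called lower. Scaled to the spike-ins, CDC21 was at -0.91, LCB1 at -0.46 and LCB2 at 0.41.

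The 4 transcription regulators all rose, with a median of 0.48. BAS1 read 11.04, 10.77 and 10.82 in the LoaOOH cultures, against 9.97, 9.86 and 9.81 in the methanol cultures. The difference was 0.997 (SE 0.074, limma adjusted p = 2.24e-06), just under 2-fold, with LoaOOH culture 1 the highest. PHO2, its partner, rose by 0.59, and CHA4, the serine-responsive activator of CHA1, by 0.37. GCN4, whose control is known to be largely translational, rose by 0.12 (limma adjusted p = 0.022), a call that ended when LoaOOH 1, LoaOOH 2, methanol 1 or methanol 2 was left out (adjusted p = 0.0529 to 0.0737).

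**Figure D4:**
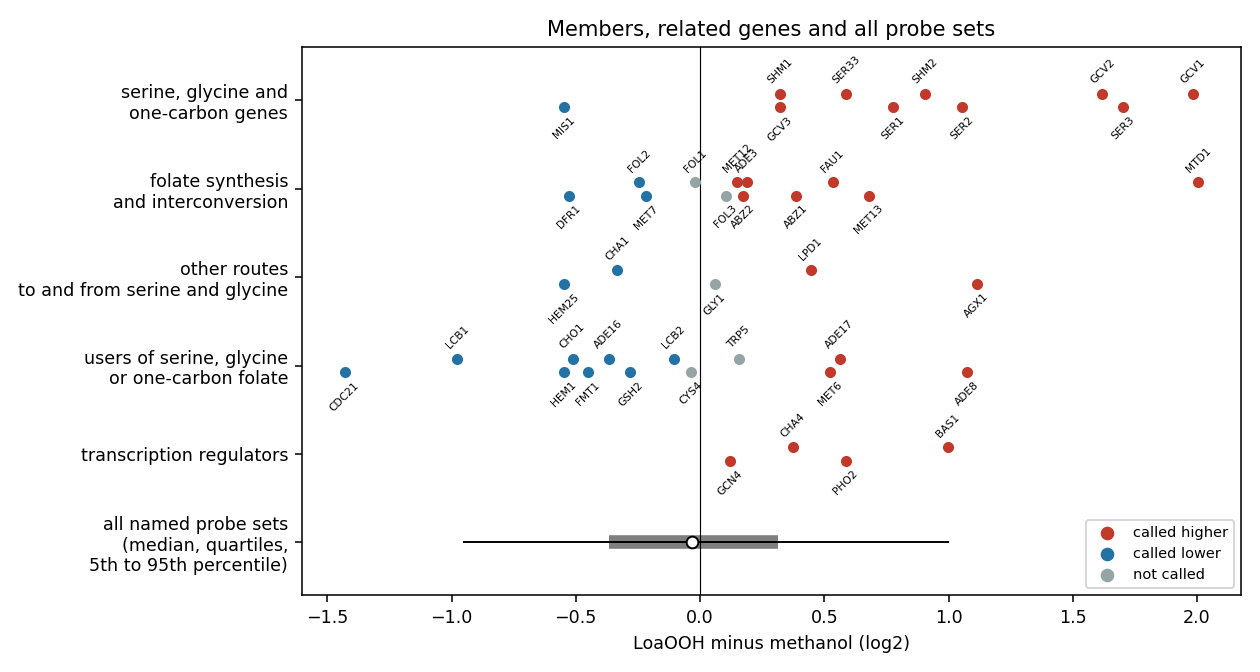
LoaOOH minus methanol (log2, deposited scaling) for the 10 genes, the 4 lists of related genes and all 5498 named probe sets, coloured by call; the last row shows the median, quartiles and 5th to 95th percentiles. GCV1, SER3, GCV2 and SER2, and in the lists MTD1, AGX1 and ADE8, lie above the 95th percentile of 1.00, while CDC21 and LCB1 lie below the 5th percentile of -0.96.

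On the chromosomes the 10 genes are spread over 9 of them in the R64 table. Of 18 measured protein-coding neighbours, 9 were called higher, 6 lower and 3 not called, beside 36.8% higher and 41.9% lower of all probe sets. At least 2-fold differences were seen in 2 of the 18, YPT10 beside SHM1 (-1.11) and REX2 beside SHM2 (1.14). Of all probe sets, 5.02% were called and at least 2-fold higher and 4.15% called and at least 2-fold lower. Some neighbours differed as much as the member or more in the same direction: REX2 beside SHM2 (0.90), MIC12 (0.33) beside SHM1 (0.32) and RPL19A (-0.86) beside MIS1 (-0.55). Others differed by less or the other way, among them AIM9 (0.04) and UTP7 (-0.77) beside SER3, DAS2 (0.37) beside GCV1, and MRPS17 (-0.11) and SGS1 (0.33) beside GCV2.

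Over the 6 arrays the genes with a standard name most correlated with GCV1 were SRX1, sulfiredoxin, MTD1, and ISU2, a scaffold of iron-sulfur cluster assembly (Pearson r = 0.9998 to 0.9999). For MIS1 they were SDA1, a factor of large ribosomal subunit assembly, SEC39, of transport between endoplasmic reticulum and Golgi, and RPA190, the largest subunit of RNA polymerase I (r = 0.9982 to 0.9993). SDA1 differed by -0.79, SEC39 by -0.39 and RPA190 by -0.40. These points share 2 groups of 3 arrays, and 502 other genes had r over 0.99 with GCV1 and 55 with MIS1, so the order is a description only.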

How the data were processed

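RNA of 3 LoaOOH and 3 methanol cultures was measured on 1 array each. The authors' deposited values are on the log2 scale; RMA and Partek are named, per the submitters' processing notes, without versions or roles. RMA subtracts background, quantile-normalises and summarises probes, so a shift shared by most messages is removed. No scan date or other batch is given in the sources used here.

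Of 5900 probe sets, 184 controls and 218 without a gene were left out. The other 5498 named 1 gene each, and all gene identifiers matched the R64 gene table, which updated 12 symbols. No array duplicated another (at most 0.109% identical values). The labels call the replicates biological. P-values measure the spread between these cultures, which may be aliquots of a shared culture, and 6 arrays limit the precision (median SE 0.0527).

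limma 3.58.1 in R 4.3.3 (lmFit, eBayes, two-sided, no covariate) was fitted to all 5498 probe sets with Benjamini-Hochberg adjustment. The code was also run on simulated data with independent noise. There the share of changed probe sets was far below the 78.7% called here, so that run does not vouch for these calls. Single values had exact two-sided permutation tests. All members and measured list genes were named, with the 3 genes most correlated with the members of largest rise and fall. The members and lists were chosen with earlier results of these data known. Same-numbered cultures were not treated as pairs. Alternatives were other scalings, variance models, filters and thresholds, a replicate block, and leaving out each array. No sequences are shown.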

Additional observations from a re-analysis of the deposited data

How the results depend on the processing

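Over all alternatives, 165 of 170 values of the 10 genes kept direction and call, 5 lost the call and none reversed. The variance trend, filters, thresholds and replicate block leave each log2 difference unchanged, so they could change a call but not a direction. Spike-in scaling could not turn a rise into a fall. The direction was free to change only in the other scalings, the array weights and the fits without 1 array. Leaving out each array in turn gave 9 higher and 1 lower every time. In the spike-in scaling no member was lower (0, against 1), because MIS1 lost its call. Calls in that scaling are nominal, since limma took its variance as known. With treat, limma's test against a minimum size, set at 0.5 (log2), none was lower either (0), and SER33, SHM1 and GCV3 lost their call. In the 4 related lists that test called 4 higher and 2 lower, against 16 and 13. The share of all probe sets that it called was not counted, so its counts are a description only. The spike-in scaling called 2 lower in these lists, beside 7.68% of all probe sets. Spike-in scaling turned the sign of FOL2 (0.2734), MET7 (0.2995), FOL1 (0.498), CHA1 (0.186), CHO1 (0.0053), LCB2 (0.4115), FMT1 (0.0669), ADE16 (0.1507), CYS4 (0.4812) and GSH2 (0.2384). That scaling adds 0.52 to every gene, so by construction it turns the sign of any smaller fall. Without 1 array the lists held 14 to 17 higher and 12 to 13 lower.

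Same-numbered cultures deviated together at r = 0.31, 0.049 and 0.258, and numbers 1 and 3, but not 2, correlated best with their own. Deviations from a mean of 3 arrays are not independent, so these values cannot decide whether the numbers mark pairs. The main fit did not take them as pairs. With the replicate block the members were 9 higher and 1 lower, and of the list genes TRP5 alone changed, gaining a call at 0.1563. The block leaves the shift of each isozyme ratio unchanged by construction. The exact paired permutation p with the block was 0.25 for each of the 3 ratios. The isozyme ratios shifted by 0.567 to 0.602 (SHM2 over SHM1), -1.131 to -1.095 (SER33 over SER3) and 0.699 to 0.777 (ADE3 over MIS1) without 1 array. limma's array weights did not fully converge. With 3 cultures per group no exact test could pass 0.05, and FMT1 and URA3 lie under the brightest negative control, which limits what their values show.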
